A study of Mus musculus with 21 samples.

Results

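The genes described here encode the nuclear-made parts of the mitochondrial oxidative phosphorylation system, and their messenger RNA was measured in the mouse line RAW 264.7, a tumour-derived model of macrophages, 2 h after amorphous silica was added. Members were the genes whose symbol begins with Nduf, Sdha, Sdhb, Sdhc, Sdhd, Uqcr, Cox4 to Cox8 or Atp5, taken from probe sets with a single gene symbol, and each gene was read from its probe set with the highest mean over all 21 arrays. This gave 87 of the 12393 genes measured: 33 subunits of complex I, 4 of complex II, 8 of complex III, 17 of complex IV and 17 of complex V, with 8 assembly factors that the same prefixes take in (5 of complex I and 3 of complex II). The rule used names alone and no measured difference.

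Complexes I to IV pass electrons from NADH and succinate to oxygen and, except for complex II, pump protons out of the mitochondrial matrix; complex V, the ATP synthase, lets the protons flow back and makes ATP. Assembly factors are not part of the finished complexes but insert iron-sulphur clusters or other cofactors, modify subunits and hold intermediates together. In macrophages, inflammatory activation is known to shift ATP production toward glycolysis, and complexes I, II and III can release reactive oxygen species. The subunits encoded by mitochondrial DNA were not analysed here.

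Cells received 10 nm particles at 5, 20 or 50 µg/ml (called low, mid and high below) or 500 nm particles at 250, 500 or 1000 µg/ml, in medium without serum, and untreated cells were the control. All 7 groups are of this single clonal line and each had 3 arrays. Whether the untreated cells were also moved to serum-free medium is not stated, so that step and the particles cannot be told apart. The labels do not call the replicates separate cultures, so the p-values reflect only how far these arrays spread, and that spread may be technical. Of 9 macrophage markers measured, 7 lay above the median gene on all arrays (Adgre1, Cd14, Cd68, Csf1r, Fcgr1, Lyz2 and Ptprc), and none of the 4 T cell, 3 B cell, 4 neutrophil, 5 fibroblast or 4 epithelial markers did.

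A pair of arrays stood apart, and both touch the results below. The 3 prime minus 5 prime signal of the Gapdh and beta-actin control probe sets, a measure of RNA integrity and of labelling length, was 1.15 on the log2 scale for untreated replicate 3 and 0.95 for 10 nm high-dose replicate 3, against 0.14 to 0.55 on the other arrays. As deviations from each gene's mean over all arrays, the members' median was 0.13, 0.12 and -0.22 on untreated arrays 1, 2 and 3, and -0.08, -0.06 and -0.36 on the 10 nm high-dose arrays. The remaining arrays lay between -0.10 and 0.10. Among untreated arrays, replicate 3 was the lowest for 64 of the 87 members (73.6%, against 36.6% of all genes), and 28 members there were over 0.5 log2 units below both other arrays. Atp5e, the epsilon subunit of ATP synthase, is the clearest case, with log2 signals of 10.75, 10.63 and 8.93 untreated and 10.64, 10.72 and 9.38 at 10 nm high dose. The part of RNA quality in the group differences was not tested, and the main results are therefore given with and without both arrays.

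**Figure D1:**
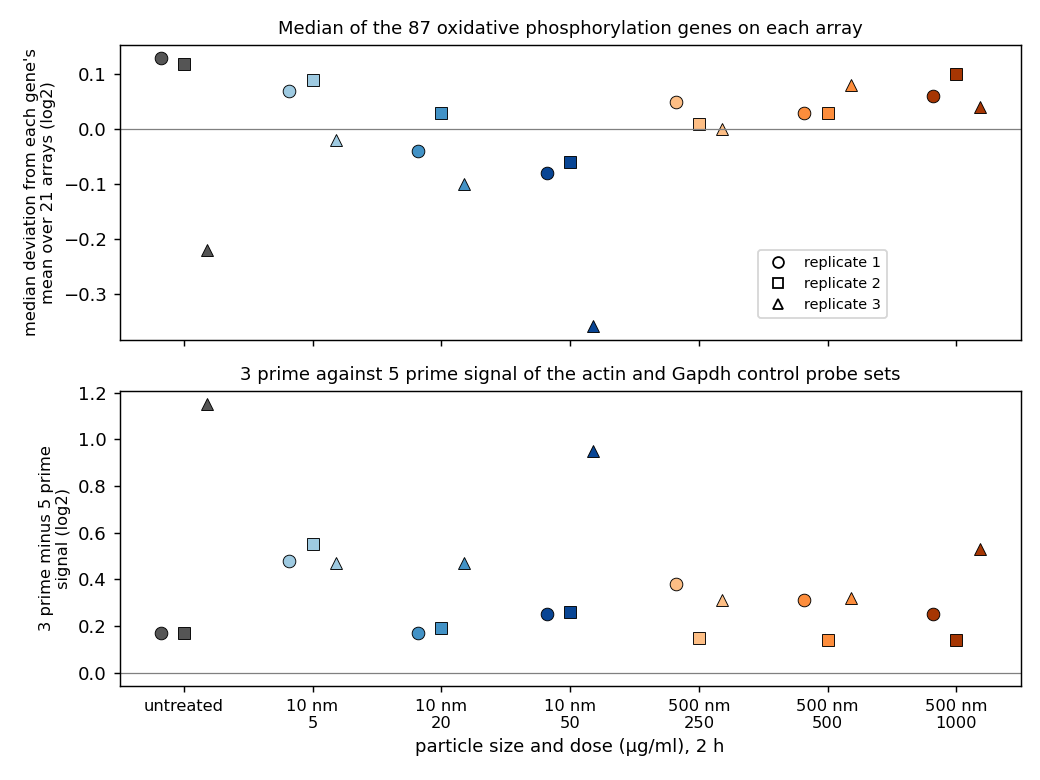
The upper panel plots, for each of the 21 arrays, the median deviation of the 87 genes from their means (log2), and the lower panel plots the 3 prime minus 5 prime signal of control probe sets (log2); symbols mark the replicate number. Untreated replicate 3 (-0.22 and 1.15) and 10 nm high-dose replicate 3 (-0.36 and 0.95) lie apart in both panels.

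At the highest dose of 10 nm particles most members were slightly lower than in untreated cells. Their median change was -0.14 on the log2 scale. The median SE of 0.14 is that of a single gene's change and not of this median. Between arrays the members' median deviation had an SD of 0.20 in untreated cells and 0.17 at this dose. In all, 7 genes fell at a limma adjusted p under 0.05 (Sdhaf1, Cox7c, Ndufaf5, Ndufaf7, Ndufs1, Atp5c1 and Uqcrb) and Cox8c rose. Those 7 of 87 are 8.05% of members, where 12.6% of all genes fell, and the gene that rose is 1.15%, where 7.58% of all genes rose; neither share lies above its background. Taken in either direction, 8 members were called (9.2%, against 20.2% of all genes). Without untreated replicate 3 that count was 22 (25.3%, against 20.5% of all genes in the same fit), without untreated replicates 1 and 2 in turn it was 4 and 5 (15.2% and 14.9% of all genes), and without high-dose replicate 3 it was 5 (14.2% of all genes). Without both arrays that stood apart 8 members fell and 0 rose (9.2%), where 1119 of 12393 genes fell and 515 rose (13.2%). The median change was -0.14 on the log2 scale for members and 0.04 for all genes. Of the 87 members 74 (85.1%) were below 0, against 46.1% of all genes. Signal level moves with this shift: 73 members belong to the brightest 25% of genes, where the median of all genes was -0.11 with 68.6% below 0, beside -0.14 and 89% for those 73. After quantile normalization the members' median was -0.11 (all genes 0.01), without the 2 arrays that stood apart it was -0.20 (all genes 0.03), and with arrays rescaled to a common mean and SD it turned to 0.02 (all genes 0.03). The 3 arrays of a group did not overlap those of untreated cells for 11 lower and 2 higher members, 12.6% and 2.3%, where 16.4% and 16.9% of all genes were so separated.

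The signal of Sdhaf1, the factor that helps complex II take up the iron-sulphur clusters of its Sdhb subunit, was 8.22, 8.21 and 7.94 (log2) in untreated cells. It was 7.97, 8.02 and 7.82 at 10 nm low dose, 7.32, 7.32 and 6.97 at mid dose, and 7.26, 6.98 and 6.59 at high dose. With 500 nm particles it was 8.04, 7.85 and 7.72, then 8.0, 8.05 and 7.77, then 7.98, 7.83 and 7.66 from low to high dose. The 6 arrays of 10 nm mid and high dose were all below all other arrays. Sdhaf1 fell by 0.92 on the log2 scale at mid dose (SE 0.15, limma adjusted p 0.000377) and by 1.18 at high dose (SE 0.15, 2.27-fold, limma adjusted p 1.87e-05). It was the only member with a change of at least 2-fold in any comparison, and its fall was called under every alternative run for these 2 doses. Without the 2 arrays that stood apart the high-dose change was -1.10.

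The catalytic and membrane subunits of complex II did not pass the test at either high dose. Sdha, the flavoprotein that oxidises succinate, was at 11.15, 11.05 and 10.84 untreated and 10.81, 10.77 and 10.33 at 10 nm high dose, a change of -0.38 (SE 0.13, limma adjusted p 0.0526) with no overlap of the arrays. Sdhb, the iron-sulphur subunit, was at 11.99, 11.90 and 11.92 untreated and 11.71, 11.67 and 11.73 at 10 nm high dose, again without overlap (-0.24, SE 0.08, limma adjusted p 0.0506). Sdhc, a membrane anchor of the complex, changed by -0.07 there and by 0.22 at 500 nm high dose, and it was lowest in replicate 3 of every group.

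Complex I, the NADH dehydrogenase, had 32 of its 33 subunits below 0 at 10 nm high dose, with a median of -0.20 and a range from -0.57 to 0.03. A single subunit was called. Ndufs1, the large iron-sulphur subunit that receives electrons from NADH, was at 10.63, 10.62 and 10.71 untreated, 10.62, 10.79 and 10.62 at 10 nm low dose, 10.33, 10.48 and 10.40 at mid dose and 10.33, 10.28 and 10.29 at high dose. The high-dose arrays lay close together and below every untreated array, and the fall was 0.35 on the log2 scale (SE 0.09, 1.28-fold, limma adjusted p 0.00663). Its call was lost with rescaled arrays (-0.22, limma adjusted p 0.123) and when only these 2 groups entered the fit (0.121).

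Among the other complex I subunits, the one with the largest decrease was Ndufv2, an iron-sulphur subunit beside the NADH site, at -0.57 (SE 0.25, limma adjusted p 0.107). Its signals were 11.62, 11.55 and 10.70 untreated and 11.02, 10.99 and 10.16 at 10 nm high dose, so that untreated replicate 3 lay below replicates 1 and 2 of the treated group. Ndufv1, its partner that carries the flavin, changed by 0.03 (SE 0.13), the highest value of any subunit of the complex. Ndufb2, an accessory subunit of the membrane arm, was at 10.69, 10.73 and 9.36 untreated and 10.59, 10.59 and 9.49 at high dose, with replicate 3 more than 1 log2 unit below the others in both groups and a difference of means of -0.04.

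Complex I assembly factors Ndufaf5 and Ndufaf7 also fell. Ndufaf5, which acts early in building the arm that binds quinone, was at 8.55, 8.59 and 8.50 untreated, 8.57, 8.69 and 8.49 at 10 nm low dose, 8.20, 8.30 and 8.08 at mid dose and 8.28, 8.13 and 8.0 at high dose. The mid-dose and high-dose arrays were below all untreated and low-dose arrays. The falls were 0.35 at mid dose (SE 0.09, limma adjusted p 0.0191) and 0.41 at high dose (SE 0.09, 1.33-fold, limma adjusted p 0.0046). The high-dose call was lost only where these 2 groups alone were fitted (0.109), and the mid-dose call there (0.138) and without untreated replicate 2 (0.0659), mid-dose replicate 1 (0.0592) or mid-dose replicate 3 (0.103). Ndufaf7, a methyltransferase that modifies a core subunit, was at 7.92, 7.83 and 7.74 untreated and 7.60, 7.47 and 7.18 at high dose. Its fall of 0.41 (SE 0.13, limma adjusted p 0.0272) was not called after quantile normalization (-0.26, limma adjusted p 0.0558) or without the 2 arrays that stood apart (-0.34, limma adjusted p 0.122), nor without untreated replicate 1 (0.093) or 2 (0.0661) or high-dose replicate 3 (0.151). The other complex I assembly factors were between -0.14 and -0.07 at high dose, with Ndufaf4 at -0.07 (SE 0.21).

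Complex III hands electrons from ubiquinol to cytochrome c, and its 8 members had a median of -0.13 at 10 nm high dose. Uqcrb, a small subunit near the quinone site, was at 13.69, 13.64 and 13.66 untreated and 13.50, 13.35 and 13.43 at high dose. Those arrays did not overlap, and Uqcrb fell by 0.24 (SE 0.08, limma adjusted p 0.0424), close to the threshold: 11 of 17 alternatives ended the call, among them quantile normalization (-0.22, limma adjusted p 0.0591) and leaving out any of the 3 untreated arrays or high-dose replicate 2 or 3 (0.0591 to 0.14), and rescaled arrays turned it to 0.01. A second Uqcrb probe set changed by -0.15. Uqcrc2, a core subunit, stood higher rather than lower on replicate 3, at 11.22, 11.45 and 12.43 untreated and 11.09, 11 and 12.02 at high dose, a difference of -0.33 (SE 0.33, limma adjusted p 0.484). Uqcr10 and Uqcrh, small subunits of the same complex, changed by 0.02 and 0.04.

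Cytochrome c oxidase, complex IV, had the widest spread at 10 nm high dose, from -0.83 for Cox7c to 0.58 for Cox8c around a median of -0.10. Cox7c, a small structural subunit, was at 6.49, 6.40 and 6.23 untreated, 5.70, 6.05 and 5.88 at 10 nm low dose, 5.60, 5.84 and 5.48 at mid dose and 5.80, 5.44 and 5.39 at high dose. With 500 nm particles it was at 6.19, 6.09 and 6.07, then 5.57, 6.22 and 5.67, then 5.77, 5.66 and 5.34. All treated arrays were below all untreated arrays. Cox7c was the only member that fell at the high dose of both sizes, by 0.83 with 10 nm (SE 0.16, limma adjusted p 0.00123) and by 0.79 with 500 nm particles (SE 0.16, 1.72-fold, limma adjusted p 0.00223), 2 comparisons that share the untreated arrays. It also fell by 0.73 at 10 nm mid dose (limma adjusted p 0.00484), and its second probe set, which lies in the dimmest 25% of genes, changed by -1.01 and -1.16 at the 2 high doses. The probe set used is dim too. It averaged 5.85 over all arrays, below the array medians of 6.16 to 6.29, where Cox7a2 of the same complex averaged 12.97. How well either probe set reads the Cox7c transcript was not tested.

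Cox8c, the testis-type form of subunit 8, was at 6.79, 6.77 and 6.48 untreated and 6.89, 7.43 and 7.47 at 10 nm high dose, without overlap. It rose by 0.58 (SE 0.20, limma adjusted p 0.0466), but not without the 2 arrays that stood apart (0.38, limma adjusted p 0.33) nor without any of the 3 untreated arrays in turn (0.0693 to 0.122), or high-dose replicate 2 (0.138) or 3 (0.172). The other complex IV isoforms did not pass the test at either high dose. The heart and muscle forms Cox6a2, Cox7a1 and Cox8b changed by 0.30, -0.54 (limma adjusted p 0.0523) and 0.47 at 10 nm high dose, and their widely expressed counterparts Cox6a1, Cox7a2 and Cox8a by -0.13, -0.16 and -0.11. Cox4i1 and Cox4i2, the common and the hypoxia-linked form of subunit 4, changed by -0.02 and 0.28, and Cox6b1 and Cox6b2 by 0.02 and 0.04. Ndufa4, once assigned to complex I and now to complex IV, was at 10.89, 10.85 and 9.73 untreated and 10.67, 10.57 and 9.54 at high dose (-0.23, SE 0.30).

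ATP synthase, complex V, had a median of -0.07 and a range from -0.31 to 0.14 over 17 members; without the 2 arrays that stood apart its median was -0.14 and that of complex IV stayed at -0.10. Atp5c1, the gamma subunit that turns inside the catalytic head, was at 12.59, 12.56 and 12.49 untreated and 12.31, 12.21 and 12.19 at 10 nm high dose. The arrays did not overlap and the fall was 0.31 (SE 0.08, 1.24-fold, limma adjusted p 0.0135); with rescaled arrays it was -0.11 (limma adjusted p 0.415), and without untreated replicate 1 its limma adjusted p was 0.0517. A second, dim Atp5c1 probe set changed by -1.06 there and by -1.0 at 500 nm high dose, where the brighter one changed by -0.03. Atp5e had the highest value of the complex, 0.14 (SE 0.37), on the uneven arrays given above.

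**Figure D2:**
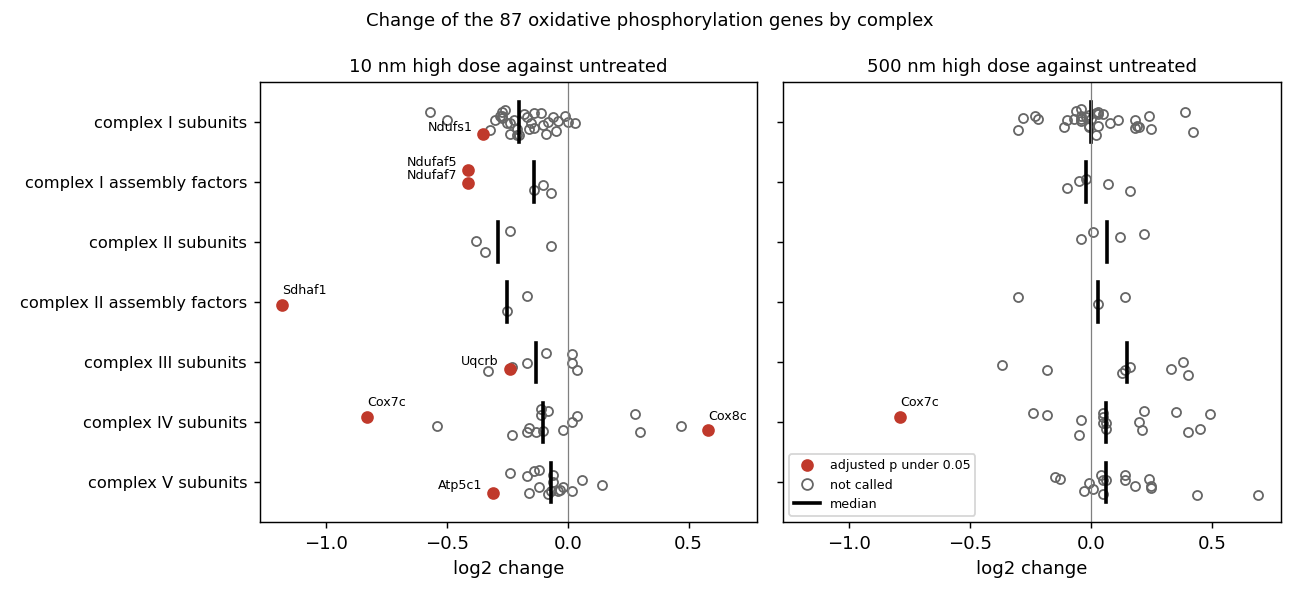
Each point is 1 of the 87 genes, placed by its log2 change against untreated cells at 10 nm high dose (50 µg/ml, left) and 500 nm high dose (1000 µg/ml, right), in rows by complex; filled points passed a limma adjusted p of 0.05 and bars are row medians. At 10 nm, 74 of 87 points lie below 0 and 8 are filled; at 500 nm, 33 lie below 0 and only Cox7c is filled.

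The response to 10 nm particles followed dose for some members. At low dose none was called (0.767% of all genes in either direction) and the median change was 0.03 for members and for all genes; without the 2 arrays that stood apart it turned to -0.08 for members (71.3% below 0) and was 0.04 for all genes (41.9% below 0). At mid dose Sdhaf1, Cox7c and Ndufaf5 fell, 3.45% of members where 7.39% of all genes fell, and none rose where 3.22% of all genes rose. The mid-dose median was -0.05 with 60.9% of members below 0, and without the 2 arrays -0.15 with 86.2% below 0, against 46.5% of all genes. In that fit 5 members fell (5.75%, against 10.8% of all genes called in either direction). The slope on log2 dose across the 10 nm groups was called for 7 members, all falling: Sdhaf1, Ndufaf5, Ndufs1, Sdhb, Ndufa6, Uqcrb and Ndufb9, or 8.05%, with 9.05% falling and 3.13% rising over all genes. Group means were lower at each step from low to high dose for 46 of 87 members (52.9%) and 27.2% of all genes. That share includes 10 nm high-dose replicate 3. The members' median slope was -0.06 with 82.8% below 0 (all genes 0 and 49.5%). Without the 2 arrays that stood apart it was -0.03 with 73.6% below 0 (all genes 0 and 51.5%).

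Slopes are given as the change in log2 signal per doubling of dose. The untreated arrays do not enter a slope, only the estimate of spread behind its test. The slope was -0.31 for Sdhaf1 (SE 0.05, limma adjusted p 0.000183), -0.14 for Ndufaf5 (SE 0.03, limma adjusted p 0.00267) and -0.12 for Ndufs1 (SE 0.03, limma adjusted p 0.00511). Ndufa6, an accessory subunit of complex I, was at 10.62, 10.66 and 10.30 at low dose, 10.24, 10.35 and 10.02 at mid dose and 10.15, 10.08 and 9.43 at high dose, a slope of -0.19 (SE 0.05, limma adjusted p 0.0269). Replicate 3 was the lowest Ndufa6 array at each of these doses, and without high-dose replicate 3 the slope was -0.13 (limma adjusted p 0.132); the call was also lost without low-dose replicate 1 (0.101) or 2 (0.133). Ndufb9, another accessory subunit, was at 11.60, 11.75 and 11.54, then 11.32, 11.48 and 11.43, then 11.31, 11.30 and 11.04, so low dose did not overlap the higher doses (slope -0.12, SE 0.04, limma adjusted p 0.0403). Sdhb sloped by -0.09 (limma adjusted p 0.0223) and Uqcrb by -0.08 (limma adjusted p 0.0323). The calls for Ndufb9, Sdhb and Uqcrb were each lost when arrays were centred on their median (0.054, 0.0507 and 0.0641). The count of 7 became 3 (3.45%) without low-dose replicate 1 or 2, where 8.7% and 6.75% of all genes were called. It became 4 (4.6%) without high-dose replicate 2 or 3, where 9.15% and 9.41% of all genes were. Sdhaf1, Ndufaf5 and Ndufs1 kept their calls without any single array.

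**Figure D3:**
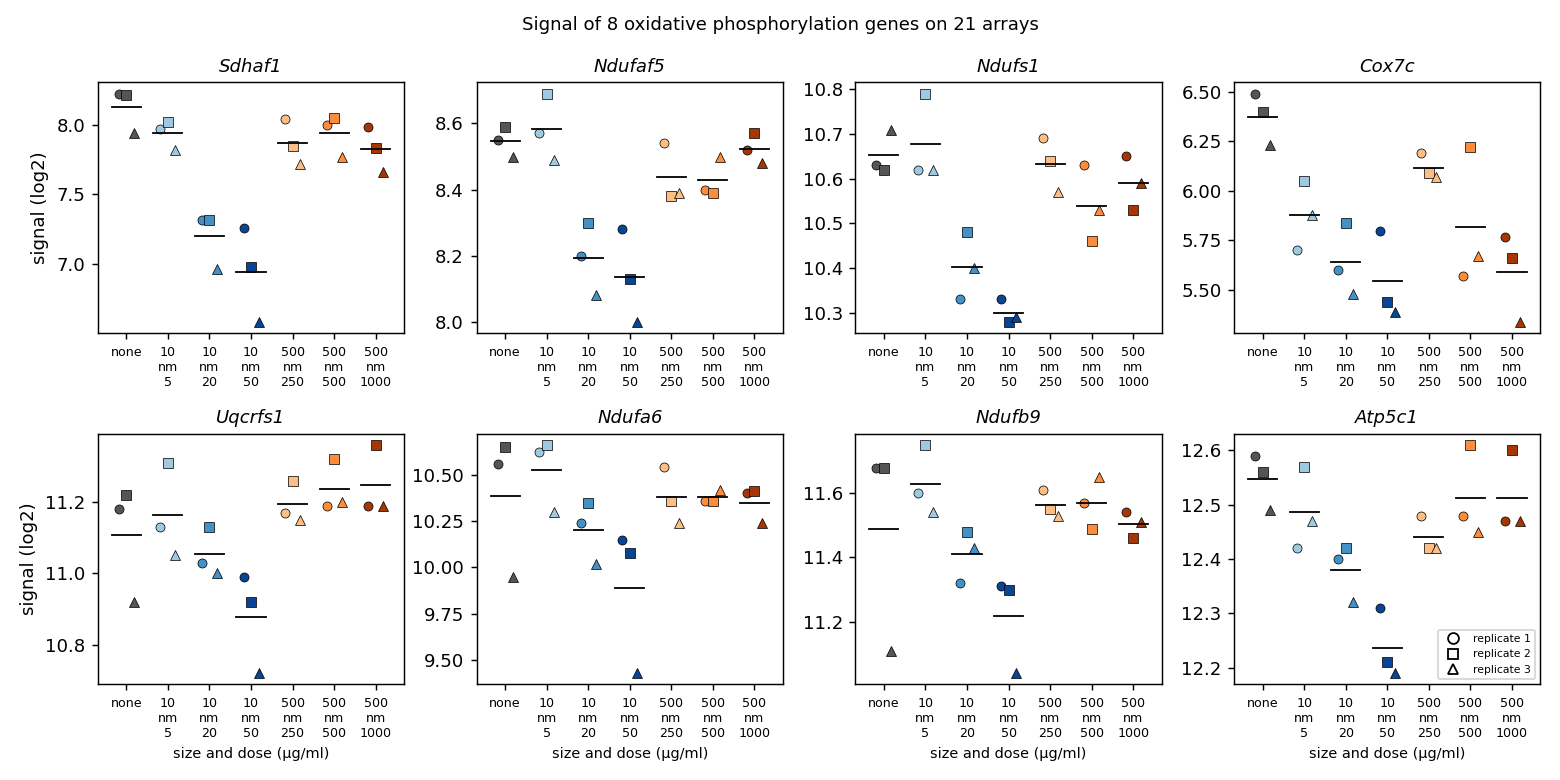
Signal (log2) of 8 called genes on all 21 arrays, by particle size and dose; symbols mark replicates, bars are group means, and each panel has its own axis, which does not start at 0. Sdhaf1 drops from 7.94 or more untreated to 7.26 or less at 10 nm high dose, while Cox7c is lower at the high dose of both sizes; Ndufa6, Ndufb9 and Uqcrfs1 show the low replicate 3 in untreated cells.

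Promoter sequence was available from RefSeq (build GRCm38.p6, 250 bases before to 50 after the start of transcription) for 73 of the 87 members. Nuclear respiratory factor 1 and the ETS factor GABP are known regulators of respiratory chain genes, and their core letters were searched on both strands. The NRF1 core GCATGCGC was found in 11 of 78 member windows (14.1%) and in 2.71% of all 32851 windows, and the ETS core CCGGAAG in 20 member windows (25.6%) and 8.86% of all windows. The YY1 core AAGATGGCG was in 7.69% of member windows and 1.4% of all, and the oestrogen-related receptor letters TCAAGGTCA in 2.56% and 0.423%. Of the 8 called members with a window, 3 held the NRF1 core (Ndufa6, Ndufaf5 and Sdhb) and 2 the ETS core (Sdhaf1 and Sdhb). A match describes the letters and not a bound site. The 4 members of the 10 nm dose trend with such a match are shown from 120 bases before to 30 after the start, 5′ to 3′ in the direction of the gene, with matches to either core in capitals; overlapping matches of the near-palindromic NRF1 core join into a longer run in Ndufaf5.
Sdhaf1, chr7:30322346-30322495, minus strand: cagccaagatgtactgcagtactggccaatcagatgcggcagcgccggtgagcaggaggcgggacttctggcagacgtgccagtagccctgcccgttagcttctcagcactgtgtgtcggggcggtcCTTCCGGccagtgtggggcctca
Ndufaf5, chr2:140170526-140170675, plus strand: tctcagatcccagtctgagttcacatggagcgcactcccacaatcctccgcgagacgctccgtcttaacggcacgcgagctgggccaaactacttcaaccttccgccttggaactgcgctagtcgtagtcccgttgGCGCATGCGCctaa
Sdhb, chr4:140961151-140961300, plus strand: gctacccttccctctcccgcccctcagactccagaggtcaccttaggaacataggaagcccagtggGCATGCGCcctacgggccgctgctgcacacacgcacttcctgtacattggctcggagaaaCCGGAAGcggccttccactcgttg
Ndufa6, chr15:82354262-82354411, minus strand: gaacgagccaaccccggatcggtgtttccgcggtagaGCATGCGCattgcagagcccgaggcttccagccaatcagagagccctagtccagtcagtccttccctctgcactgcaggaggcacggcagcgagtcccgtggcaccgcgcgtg

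With 500 nm particles few members differed from untreated cells by the test. None was called at low dose (0.428% of all genes) or mid dose (2.77%), and at high dose only Cox7c fell, 1.15% of members where 10% of all genes fell, and none rose where 5.31% of all genes rose. The medians were 0.01, 0.05 and 0.05 from low to high dose, beside 0.00, 0.02 and 0.07 for all genes, and 33 of 87 members (37.9%) were below 0 at high dose against 40.1% of all genes. Arrays did not overlap for 5 lower and 4 higher members at high dose, 5.75% and 4.6%, where 15.9% and 15.2% of all genes were separated. No member followed the 500 nm doses by its slope, which 8.2% of all genes did. The sign of these medians depends on the 2 arrays that stood apart: without them they were -0.11, -0.04 and -0.04 from low to high dose (all genes 0.02, 0.02 and 0.06), with 74.7%, 71.3% and 63.2% of members below 0 against 46.6%, 46.4% and 42.6% of all genes.

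The highest value at 500 nm high dose belonged to Atp5e, at 10.70, 11.09 and 10.59 against 10.75, 10.63 and 8.93 untreated. Its difference of 0.69 (SE 0.37, limma adjusted p 0.232) follows the low untreated replicate 3; without that array it was 0.10 (limma adjusted p 0.85). Ndufa4 (0.49), Ndufb2 (0.42), Cox8a (0.40) and Uqcr10 (0.40) were also among the members over 0.5 log2 units lower in that array, and none was called. Ndufb5, a membrane-arm subunit of complex I, was at 11.42, 11.52 and 11.64 untreated and 11.09, 11.24 and 11.36 at 500 nm high dose, without overlap (-0.30, SE 0.12, limma adjusted p 0.108). Uqcrc2 changed by -0.37 and Atp5h, the d subunit of ATP synthase, by -0.15.

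Particle sizes were compared directly by setting the mid dose of 10 nm against the high dose of 500 nm, which have the same ratio of mass to diameter and so the same nominal surface area, and at both high doses. Neither of the arrays that stood apart enters the difference in the first comparison, but both enter the estimate of spread behind its test. In this first comparison 77 of 87 members (88.5%) were lower with 10 nm particles, against 59% of all genes. The median was -0.10 for members and -0.04 for all genes. Among the brightest 25% of genes the medians were -0.09 for members and -0.03 for all. Only Sdhaf1 was called (-0.62, SE 0.15, limma adjusted p 0.0313), 1.15% of members where 1.04% of all genes were lower and 1.81% higher. Leaving out any array of 10 nm mid dose, or 500 nm high-dose replicate 1 or 2, ended that call (0.0605 to 0.177). Without the 2 arrays that stood apart, Sdhaf1 (-0.62, limma adjusted p 0.00616) and Ndufaf5 (-0.33, limma adjusted p 0.0337) were called. These are 2.3% of members, against 5.05% of all genes in either direction.

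Between the high doses 4 members were lower with 10 nm particles, 4.6% beside 4.15% of all genes, and none was higher, beside 3.37%. They were Sdhaf1 (-0.88, SE 0.15, limma adjusted p 0.00116), Ndufaf5 (-0.39, SE 0.09, limma adjusted p 0.0147), Ndufs1 (-0.29, SE 0.09, limma adjusted p 0.0456) and Uqcrfs1, the Rieske iron-sulphur protein of complex III (-0.36, SE 0.10, limma adjusted p 0.0393). Uqcrfs1 was at 10.99, 10.92 and 10.72 with 10 nm and at 11.19, 11.36 and 11.19 with 500 nm particles; against untreated cells it was called at neither size. The arrays of the 2 groups did not overlap for 28 members, all lower with 10 nm particles (32.2%, where 12.2% of all genes were so separated and 9.15% in the other direction). The members' median was -0.21 and that of all genes -0.01, or -0.21 and -0.09 within the brightest 25%. Without the 2 arrays that stood apart the median was -0.12 (all genes -0.04) and only Sdhaf1 stayed called (-0.70, limma adjusted p 0.00415), with Ndufaf5 at 0.0518, Ndufs1 at 0.0685 and Uqcrfs1 at 0.0841. The count of 4 became 2 without 10 nm high-dose replicate 2 (2.3%, against 5.42% of all genes in either direction). It became 1 (1.15%) without 10 nm high-dose replicate 3 or 500 nm high-dose replicate 1 or 2. There 5.26%, 4.38% and 4.56% of all genes were called. Ndufs1 was also not called after quantile normalization (-0.22, limma adjusted p 0.138). Complex III had the lowest median of the subunit groups in this comparison (-0.34) and complex IV the highest (-0.06); differences between complexes were not tested.

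**Figure D4:**
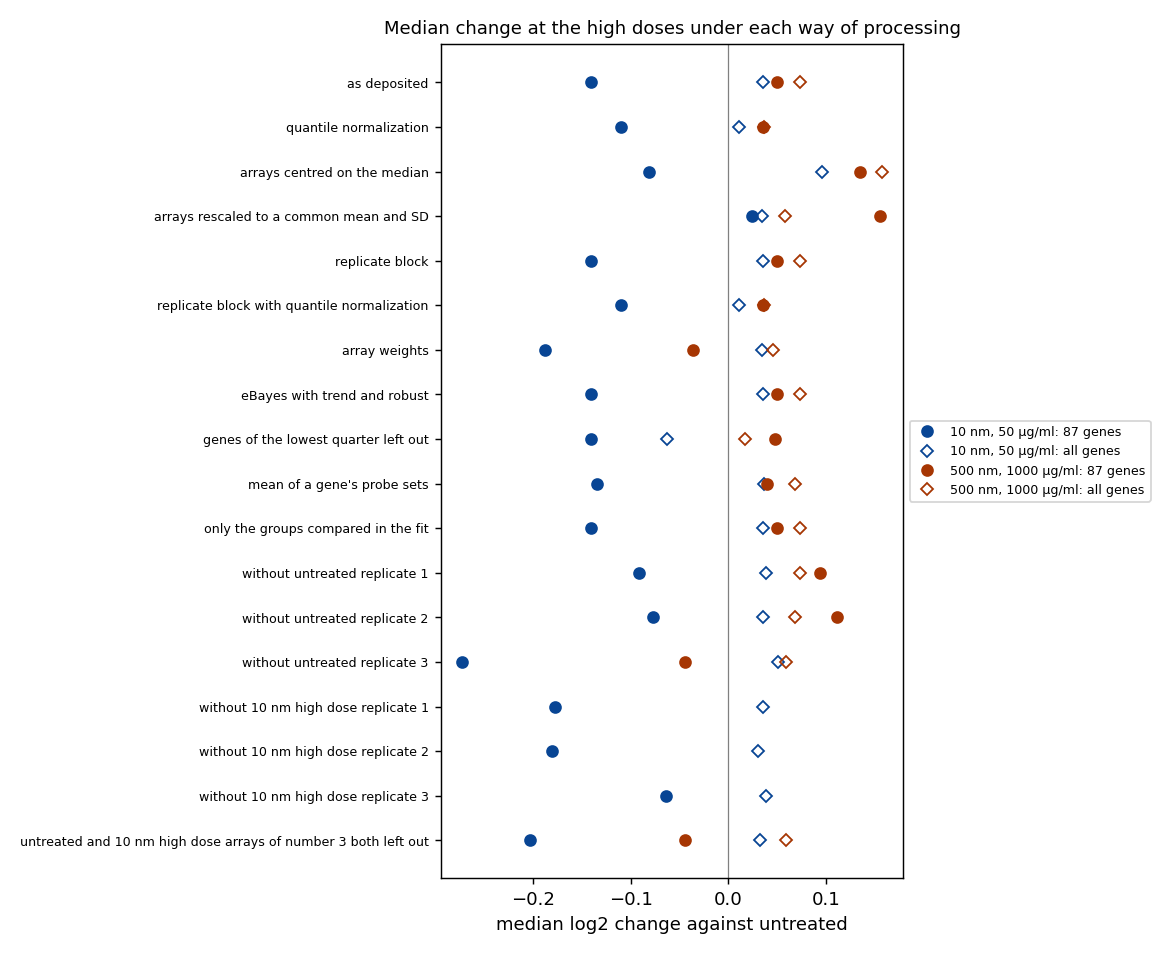
Median log2 change against untreated cells at 10 nm high dose (blue) and 500 nm high dose (orange), for the 87 genes (filled circles) and for all genes in the same fit (open diamonds), under each way of processing. The 10 nm median of the 87 genes runs from -0.27 without untreated replicate 3 to 0.02 with rescaled arrays, and is -0.14 as deposited.

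Across all 7 groups, limma's moderated F test called 4 of 87 members, or 4.6%, against 16.2% of all genes. These were Sdhaf1 (adjusted p 5.68e-05), Cox7c (0.00593), Ndufaf5 (0.00617) and Ndufs1 (0.0181). Without untreated replicate 3 the count was 7 (8.05%, against 17.4% of all genes). Agreement between probe sets of a gene was limited: at 10 nm high dose all probe sets had the same sign for 31 of the 46 members with several.

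Other mitochondrial genes were read from lists that hold no member. Of 24 genes of the citric acid cycle and pyruvate entry, 7 fell and none rose at 10 nm high dose (median -0.20), among them Pdk1, a kinase that switches off pyruvate dehydrogenase (-0.72, limma adjusted p 0.00101), Mpc1 of the mitochondrial pyruvate carrier (-0.57, 0.0474) and Suclg2 of succinyl-CoA ligase (-0.51, 0.00274). Of 36 partners of the chain, such as further assembly factors and carriers, 11 fell and 1 rose (median -0.25); they include Nnt, the transhydrogenase (-0.67), Uqcc1, a complex III assembly factor (-0.66), and Ecsit, a complex I assembly factor that also binds signalling proteins (-0.62). Of 74 proteins of the mitochondrial ribosome, which translates the subunits encoded in mitochondrial DNA, 12 fell and none rose (median -0.19), led by Mrps35 (-0.80), Mrpl42 (-0.71) and Mrps2 (-0.56). With 500 nm high dose the same lists had 2, 3 and 1 genes that fell and 0, 1 and 1 that rose, where 10% of all genes fell and 5.31% rose. In either direction these were 8.33%, 11.1% and 2.7% of the lists, against 15.3% of all genes. At 10 nm high dose they were 29.2%, 33.3% and 16.2%, against 20.2%. The median of all genes at 10 nm high dose was 0.04, with 12.6% falling and 7.58% rising. Signal level matters here too: the brightest 25% of all genes had a median of -0.11 (68.6% below 0). The 25% next below them had -0.21 (73.3% below 0). These lists were not compared with genes of like signal, and their values are not given without the 2 arrays that stood apart.

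Regulators and glycolysis changed in a few genes each. Of 27 regulators of mitochondrial genes, 5 fell and 1 rose at 10 nm high dose, where 12.6% of all genes fell and 7.58% rose. At 500 nm high dose 4 fell and 1 rose, where 10% of all genes fell and 5.31% rose. In either direction these were 22.2% and 18.5% of the list, against 20.2% and 15.3% of all genes. Tfam, which packages and transcribes mitochondrial DNA, fell by 0.33 at 10 nm high dose (limma adjusted p 0.019) and was lower there than at 500 nm high dose (-0.42, limma adjusted p 0.00811). Sirt1, a deacetylase, rose by 0.70 and the co-repressor Nrip1 fell by 0.70 at 10 nm high dose, while the coactivator Ppargc1b fell by 1.55 (limma adjusted p 0.00365) and Gabpa, the DNA-binding part of GABP, fell by 0.46 (limma adjusted p 0.036) at 500 nm high dose. Of 18 glycolysis genes, 4 rose and 1 fell at 10 nm high dose, where 7.58% of all genes rose and 12.6% fell, with Eno2 at 0.83, Slc2a1 at 0.54, Hk2 at 0.49 and Pfkfb3 at -0.95 (median -0.03).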

How the data were processed

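The authors deposited log10 signals of an Affymetrix mouse array, 1 value per probe set and array, made with RMA per the submitters' processing notes; neither its version nor its options are stated in the labels. The log base was read from the values (0.641 to 4.34, where base 10 puts the brightest at 22019 intensity units), and they were multiplied by 3.32 to give log2. RMA compresses changes of dim probe sets and removes shifts shared by most genes; the arrays still differ in SD (2.46 to 2.67), and a joint RMA run of all 21 is not stated. The platform annotation, possibly outdated, gave 1 symbol to 20393 of 22690 probe sets, several to 691 and none to 1606; 160 were members', and 8 further probe sets with member names and several symbols were left out.

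limma 3.58.1 in R 4.3.3 fitted group means over all 21 arrays and 12393 genes (14 residual and 4.8 prior degrees of freedom), with two-sided tests, Benjamini-Hochberg adjustment over all genes of a comparison and a threshold of 0.05. The brightest 25% of genes are by mean over all arrays. Figures used matplotlib 3.10.9 in Python 3.11.15. The script was tested on simulated data. Members named are all that were called, the extremes of each complex at the high doses and the tissue isoforms; from other lists, up to 3 of the largest called changes at a high dose, with a few more chosen after their values were seen. The members and lists were chosen with earlier results of these data known. Arrays have no depth, so their number limits the precision. Alternatives were other scalings, a replicate block, array weights, other eBayes settings, a filter on dim genes, averaged probe sets, fits of the compared groups alone and leaving out arrays.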

Additional observations from a re-analysis of the deposited data

Results flagged for a closer look

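In the fit without a replicate block, the effects of the 2 particle sizes differed by limma's test of the difference itself for 4 members. That share is near that of all genes. Between the high doses 4.6% of members were lower with 10 nm particles, beside 4.15% of all genes. For 10 nm mid against 500 nm high dose the shares were 1.15% and 1.04%. With the replicate number as a block, 20 members were called between the high doses (23%, against 16.7% of all genes in either direction). In that fit 2 were called for 10 nm mid against 500 nm high dose (2.3%, against 6.37%). Sdhaf1 was lower with 10 nm than with 500 nm particles by both contrasts, at -0.62 for mid against high dose and -0.88 for high against high dose, with all 3 arrays of each 10 nm group below all 3 of the 500 nm group. Ndufaf5 (-0.39), Uqcrfs1 (-0.36) and Ndufs1 (-0.29) were lower at the 10 nm high dose than at the 500 nm high dose, again without overlap. These groups differ in mass dose as well as in size, and the 2 high doses also in nominal surface area, which cannot be told apart. The contrasts between high doses include 10 nm high-dose replicate 3, whose control probe sets had a 3 prime minus 5 prime signal of 0.95. Without that array and untreated replicate 3 only Sdhaf1 stayed called between the high doses (limma adjusted p 0.00415). Ndufaf5 was then at 0.0518, Ndufs1 at 0.0685 and Uqcrfs1 at 0.0841. The Sdhaf1 call for mid against high dose was lost in 6 of 17 alternatives.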

How the results depend on the processing

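Counts of members called (either direction) are given for most alternatives that moved them, and medians for some. Shares in brackets are those of members against those of all genes in the same fit. None is given for the fit without dim genes, which tests fewer genes. At 10 nm high dose the count of 8 became 6 with quantile normalization (6.9% against 15.9%) and 5 with rescaled arrays (5.75% against 18%). It was 7 with centred arrays (8.05% against 19.9%) and 10 with other eBayes settings (11.5% against 20.2%). It became 36 with array weights, whose estimation did not fully converge (41.4% against 50.5%), and 16 with probe sets averaged (18.4% against 21.2%). With only the compared groups fitted it was 2 (2.3% against 5.58%). Leaving out single arrays gave 4 (4.6% against 15.2%) to 22 (25.3% against 20.5%). At 10 nm mid dose the count of 3 became 12 with array weights (13.8% against 25.4%) and 8 with probe sets averaged (9.2% against 11.6%). It was 5 without the 2 arrays that stood apart (5.75% against 10.8%), an alternative chosen after the values were seen. The 10 nm dose trend, 7, gave 4 with centred arrays (4.6% against 11.2%), 3 rescaled (3.45% against 11.4%) and 26 weighted (29.9% against 33.3%). It gave 2 with only its own groups (2.3% against 7.47%) and 10 with averaged probe sets (11.5% against 12.3%). The trend count was 8 with quantile normalization (9.2% against 10.4%) or other eBayes settings (9.2% against 12.3%). It was also 8 without the 2 arrays (9.2% against 13.3%). Leaving out single arrays gave 3 (3.45% against 8.7% or 6.75%) to 10 (11.5% against 13.6%). For 500 nm high dose the count of 1 became 2 centred (2.3% against 15.9%) and 5 rescaled (5.75% against 14.7%). It became 13 weighted (14.9% against 39.2%) and 3 with averaged probe sets (3.45% against 16.3%). The 500 nm trend, 0, gave 1 rescaled (1.15% against 8.53%), 8 weighted (9.2% against 27%) and 1 without dim genes. It gave 1 with averaged probe sets (1.15% against 8.66%), 2 without the 2 arrays (2.3% against 12.8%) and 0 to 1 leaving out single arrays. The 500 nm mid dose, 0, gave 2 weighted (2.3% against 18.7%), 1 with averaged probe sets (1.15% against 3.28%) and 0 to 1 leaving out single arrays. The 10 nm low dose, 0, gave 3 weighted (3.45% against 9.84%). Between 10 nm mid and 500 nm high dose the count of 1 became 2 with quantile normalization (2.3% against 3.52%). It was also 2 with centred (2.3% against 2.76%) or rescaled arrays (2.3% against 3.15%), without the 2 arrays (2.3% against 5.05%) or without dim genes. The count was 6 weighted (6.9% against 18.2%), 0 with only those groups (0.783% of all genes), and 0 to 1 leaving out single arrays. Between the high doses, 4 became 28 weighted (32.2% against 38.5%) and 0 with only those groups (1.32% of all genes). It was 5 with quantile normalization (5.75% against 8.62%) or averaged probe sets (5.75% against 7.35%). It was 6 with centred arrays (6.9% against 8.17%) or other eBayes settings (6.9% against 7.53%). It became 1 without the 2 arrays (1.15% against 7.66%) and 1 to 4 leaving out single arrays. The F test, 4, gave 38 weighted (43.7% against 63.1%) and 7 with averaged probe sets (8.05% against 16.9%). It gave 5 with quantile normalization (5.75% against 15.4%) and 6 with other eBayes settings (6.9% against 16.4%). Leaving out single arrays gave 3 (3.45% against 13.6%) to 7 (8.05% against 17.4%).

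With the replicate number as a block the counts were 15 at 10 nm high dose, 6 at 10 nm mid dose and 22 for the 10 nm trend. They were 5 at 500 nm high dose, 1 at 500 nm mid dose and 3 for the 500 nm trend. The size comparisons gave 2 for 10 nm mid against 500 nm high dose and 20 between the high doses. The F test gave 14. In the same fits the shares of members and of all genes called were 17.2% and 36.7% at 10 nm high dose and 25.3% and 22.8% for the 10 nm trend. They were 23% and 16.7% between the high doses and 16.1% and 32.4% for the F test. At 10 nm mid dose they were 6.9% and 18%, at 500 nm high dose 5.75% and 27.7%, and at 500 nm mid dose 1.15% and 5.73%. The 500 nm trend had 3.45% and 15.5%, and 10 nm mid against 500 nm high dose had 2.3% and 6.37%. The block with quantile normalization gave 13, 5, 18, 7, 1, 3, 2, 16 and 10. Its member shares were 14.9%, 5.75%, 20.7%, 8.05%, 1.15%, 3.45%, 2.3%, 18.4% and 11.5%. Those of all genes were 26.1%, 15.8%, 18.2%, 23.7%, 5%, 15%, 6.87%, 16.4% and 27.7%. Same-numbered arrays correlated above 0.1 in 51 of 63 pairs (lowest -0.24, median 0.46, highest 0.76; the median over pairs with different numbers was -0.26), and 12 of 21 arrays were closest to their own number. Replicate 3 had the lowest array SD in 7 of 7 groups. Since not every pair passed 0.1 and the labels name no shared batch, the fit without the block was kept, but these correlations are a hint from the data that arrays of one number share something.

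Among 1566 alternative values of single genes, 1413 kept direction and side of the threshold, 93 lost and 59 gained a call, and 1 reversed: Uqcrb at 10 nm high dose was 0.01 with rescaled arrays. The 10 nm high-dose median of -0.14 ranged from -0.27 to -0.06 leaving out single arrays and was -0.08 with centred and 0.02 with rescaled arrays. The cause of these differences was not tested; fits of compared groups alone have fewer samples. Changes of about 0.1 log2 are below the members' median SE of 0.14, and 1 member, Cox6b2, lies in the dimmest 25% of genes.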
